A study of Mus musculus with 47 samples.

Results

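Kalrn encodes kalirin, an exchange factor that loads guanosine triphosphate (GTP) onto the small GTPase Rac1 in dendritic spines. It is described here with 9 related genes: the exchange factors Trio, Tiam1, Ngef and Arhgef7, the GTPase gene Rac1, its effector kinases Pak1 and Pak3, and the actin-binding scaffolds Ppp1r9a (neurabin) and Ppp1r9b (spinophilin). The 10 genes were taken by symbol from a count table of 35486 genes, and all 10 were among the 17778 genes with enough reads to test. The set was chosen by the Kalrn values themselves, because Kalrn was lower in Old PF4 than in Old Veh mice in these same libraries, so that every value of these 10 genes in the Old PF4 against Old Veh comparison below is a description and carries no test.

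The libraries came from the hippocampus of 47 male C57BL/6J mice, each injected intraperitoneally with vehicle (Veh) or with mouse platelet factor 4 (PF4), a chemokine that platelets release. Young Veh (n = 13) mice were 3.75 to 5.26 months old and Young PF4 (n = 12) mice were 4.08 to 5.03 months old. Old Veh (n = 12) mice were 17.47 to 19.97 months old and Old PF4 (n = 10) mice were 17.4 to 20.23 months old. The comparisons ask how the genes differ with age and with systemic PF4 at each age. The mice carried no transgene or deletion according to the labels, and only males were measured.

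Dendritic spines are small actin-rich protrusions that carry most excitatory synapses of hippocampal pyramidal neurons. Exchange factors switch Rac1 on at the synapse, GTPase-activating proteins switch it off, and active Rac1 drives actin through the Pak kinases, which signal to Lim kinase and cofilin, and through the Wave complex, which turns on Arp2/3. Neurabin and spinophilin bind actin filaments and hold protein phosphatase 1 in the spine. Kalirin and Trio are paralogues, as are neurabin and spinophilin, and Pak1 and Pak3. In whole hippocampus, fewer cells of a type and less RNA per cell cannot be told apart.

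All positions are on mouse build GRCm38. Kalrn (ENSMUSG00000061751.16) lies at chr16:33969073-34573532 on the minus strand with 21 annotated transcripts, and its paralogue Trio lies at chr15:27730651-28025848, also on the minus strand. Ppp1r9a lies at chr6:4902917-5165661 and Ppp1r9b at chr11:94991035-95006899, both on the plus strand. Tiam1 (chr16:89787111-90143769), Ngef (chr1:87476834-87573870) and Rac1 (chr5:143503634-143528036) are on the minus strand, and Arhgef7 (chr8:11727721-11835219), Pak1 (chr7:97788541-97912381) and Pak3 (chrX:143518591-143797796) on the plus strand. The table holds 1 count per gene, so the long and short kalirin isoforms were not separated. The windows around transcript starts of these 4 genes are printed because the balance within each of the 2 paralogue pairs differed with age, as given below. They come from RefSeq (GRCm38.p6), run from 250 bases before to 50 bases after the start, and are written 5′ to 3′ on the gene's strand with CpG dinucleotides, the sites of DNA methylation in mammals, in capitals.
Kalrn, chr16:34513978-34514277, minus strand: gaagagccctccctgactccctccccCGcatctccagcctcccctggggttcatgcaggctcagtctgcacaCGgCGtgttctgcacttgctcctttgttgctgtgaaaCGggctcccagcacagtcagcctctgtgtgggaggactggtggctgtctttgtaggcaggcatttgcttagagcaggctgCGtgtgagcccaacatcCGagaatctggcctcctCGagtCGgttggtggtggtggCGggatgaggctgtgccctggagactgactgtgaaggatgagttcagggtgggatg
Trio, chr15:28025799-28026098, minus strand: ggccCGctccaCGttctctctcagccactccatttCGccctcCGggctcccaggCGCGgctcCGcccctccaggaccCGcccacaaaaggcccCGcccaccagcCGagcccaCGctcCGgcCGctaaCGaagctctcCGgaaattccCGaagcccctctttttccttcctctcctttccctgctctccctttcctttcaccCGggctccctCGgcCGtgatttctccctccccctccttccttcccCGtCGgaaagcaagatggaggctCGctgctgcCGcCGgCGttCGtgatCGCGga
Ppp1r9a first start, chr6:4902725-4903024, plus strand: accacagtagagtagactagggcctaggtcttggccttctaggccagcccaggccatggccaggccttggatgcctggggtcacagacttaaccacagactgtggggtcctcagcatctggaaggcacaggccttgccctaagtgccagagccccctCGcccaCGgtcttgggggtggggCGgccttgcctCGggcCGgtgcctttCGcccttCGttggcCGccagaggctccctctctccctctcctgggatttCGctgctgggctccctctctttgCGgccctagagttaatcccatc
Ppp1r9a second start, chr6:4903061-4903360, plus strand: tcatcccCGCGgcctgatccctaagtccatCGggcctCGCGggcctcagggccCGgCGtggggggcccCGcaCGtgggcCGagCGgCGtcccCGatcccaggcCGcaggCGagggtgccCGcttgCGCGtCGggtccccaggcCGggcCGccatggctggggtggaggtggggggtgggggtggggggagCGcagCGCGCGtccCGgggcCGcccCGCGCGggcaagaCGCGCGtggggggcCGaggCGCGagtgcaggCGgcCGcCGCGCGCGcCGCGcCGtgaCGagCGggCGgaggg
Ppp1r9b, chr11:94990962-94991261, plus strand: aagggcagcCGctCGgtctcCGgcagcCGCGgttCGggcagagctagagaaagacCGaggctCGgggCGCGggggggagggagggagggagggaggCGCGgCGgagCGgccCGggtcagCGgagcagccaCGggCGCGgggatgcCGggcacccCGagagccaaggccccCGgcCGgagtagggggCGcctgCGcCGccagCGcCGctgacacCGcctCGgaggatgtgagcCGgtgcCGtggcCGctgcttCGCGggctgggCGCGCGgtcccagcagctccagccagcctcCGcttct
The Kalrn window starts inside the gene and holds 9 CpG sites, a number that 45.8% of the 32851 mouse windows reach, whereas the Trio window holds 28, which 14.2% reach. The second Ppp1r9a window holds 48 CpG sites, which 1.22% of windows reach, the first Ppp1r9a window holds 10 and the Ppp1r9b window 39. The median over all windows was 7. The GC box letters GGGCGG, searched on both strands, were in the Trio window and both Ppp1r9a windows but not in the Kalrn or Ppp1r9b window, and in 35.7% of all windows. The full cAMP response element TGACGTCA, to which CREB binds, was in 1.79% of all windows and in none of those printed. It was in 2 of the 16 windows of these genes, at Pak1 (chr7:97788291-97788590) and at Arhgef7 (chr8:11779034-11779333). Windows were found for 9 of the 10 genes, all but Rac1, and these matches describe letters in the windows only.

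Total counts per library ran from 2242879 to 21112908 with a median of 10374007, and 8 libraries, 4 of them Old Veh, held under 5000000. Kalrn had 664 to 7281 reads per library, Rac1 908 to 8708, and Tiam1, the least read of the 10, 90 to 1005. The libraries did not preserve strand. Rac1 shares exon bases with Daglb on the opposite strand, which drew reads equal to 36.5% of those of Rac1, and Ngef shares exon bases with Neu2, at 2.99%, so that reads of these pairs may have been assigned to either gene. The other 8 genes share no exon bases with another annotated gene. Summed neuronal markers had group medians of 6149 counts per 1000000 (CPM) in Young Veh, 6224 in Young PF4, 6428 in Old Veh and 6330 in Old PF4, and 1 of the 7 was called lower with age in the contrast described below. In that contrast 4 of 6 microglial, 2 of 6 astrocyte and 1 of 6 oligodendrocyte markers were called higher, 1 of 3 oligodendrocyte precursor markers was called lower, and 0 of 5 endothelial markers were called, with median log2 fold changes of 0.21, 0.04, 0.14, -0.03 and -0.05. Their part in the results was not tested. The summed CPM of markers of the choroid plexus, a neighbouring tissue, had a median of 1943 in Young Veh (12.02 to 4259) and 2380 in Young PF4 (94.03 to 3448), against 47.1 in Old Veh (15.06 to 4259) and 65.89 in Old PF4 (25.9 to 3280). All 10 choroid plexus markers were read, and 4 of them were at 0 in at least 1 of the 47 libraries.

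Per kilobase of the longest annotated transcript, Pak1 and Rac1 were the most abundant of the 10 genes in hippocampus. Pak1 stood at 107.7 ± 7.37 CPM per kilobase (SD, n = 47 libraries) and Rac1 at 97.9 ± 4.84. Ppp1r9b (55.5 ± 4.63), Ngef (49.3 ± 5.37), Kalrn (32.3 ± 3.35), Arhgef7 (25.7 ± 1.70), Ppp1r9a (22.2 ± 2.21) and Pak3 (19.5 ± 1.09) followed on the same scale. Trio (8.74 ± 0.669) and Tiam1 (5.99 ± 0.654) were lowest. Each gene was above the next in at least 39 of 47 libraries. The order was least firm between Pak1 and Rac1 (43 of 47), between Ppp1r9b and Ngef (39 of 47), between Arhgef7 and Ppp1r9a (41 of 47) and between Ppp1r9a and Pak3 (41 of 47), whose means differed by less than the sum of their SDs. Kalrn was thus more abundant than its paralogue Trio in every group on this scale. After removal of group means, Rac1 varied least between libraries (SD 0.061 in log2 CPM) and Ngef (0.147) and Tiam1 (0.143) most, against a median of 0.146 for genes of mean log2 CPM of 4 or more.

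Taken over both treatments, Ppp1r9a and Kalrn were called higher with age and no other of the 10 genes passed the test. The Kalrn difference lay in the vehicle mice, and its call was lost in several alternatives given below. As a description, its log2 fold change was 0.21 in Old Veh against Young Veh and 0.00 in Old PF4 against Young PF4. Old mice of both treatments were compared with young mice of both treatments, weighting groups by their number of mice. With libraries of equal precision, the error of this estimate is unrelated to that of the comparison that singled out Kalrn. Depth differed between libraries, however, and both comparisons use the same estimate of the spread of a gene. Two-sided p-values are from the quasi-likelihood test of edgeR and were adjusted over all 17778 genes by the Benjamini-Hochberg method, and a gene was called at an adjusted p below 0.05. Of the 10 genes 2 were called, both higher, against 5.15% of all genes tested (3.59% higher and 1.56% lower). The median log2 fold change was -0.01 over the 10 genes and 0.00 over all genes.

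Ppp1r9a, whose product neurabin shapes spines through actin and protein phosphatase 1, showed the clearest age difference. Its lowest, median and highest levels were 160.9, 198.5 and 214.7 CPM in Young Veh, 169.2, 203.7 and 216.3 in Young PF4, 218, 236.3 and 258 in Old Veh and 179.1, 219.3 and 244 in Old PF4. All 12 Old Veh libraries lay above every Young Veh library, and 18 of the 22 old libraries lay above all 25 young ones. The log2 fold change with age was 0.19 (SE 0.03, adjusted p = 6.27e-05), a rise of 13.7%. The choroid plexus score, the mean log2 CPM of its markers, did not end this call as a covariate (adjusted p = 0.000883).

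Kalrn differed less and less firmly. Its lowest, median and highest levels were 281.1, 325.4 and 372.2 CPM in Young Veh, 293.8, 326.7 and 350.3 in Young PF4, 329.4, 367.8 and 426.8 in Old Veh and 274.6, 322 and 345.3 in Old PF4. Of the 22 old libraries 16 lay above the young median and 5 above every young library, so the ages overlapped. The log2 fold change with age was 0.12 (SE 0.03, adjusted p = 0.0281), a rise of 8.37%. The call was lost with the choroid plexus score as a covariate (0.08, adjusted p = 0.223) and without the 8 libraries under 5000000 counts (0.09, adjusted p = 0.255). It was also lost when any of Old Veh libraries 1 (0.10, adjusted p = 0.0774), 3 (0.11, adjusted p = 0.0649), 5 (0.11, adjusted p = 0.054), 6 (0.10, adjusted p = 0.076) or 7 (0.10, adjusted p = 0.0787) was left out, and held in 42 of 47 such fits.

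**Figure D1:**
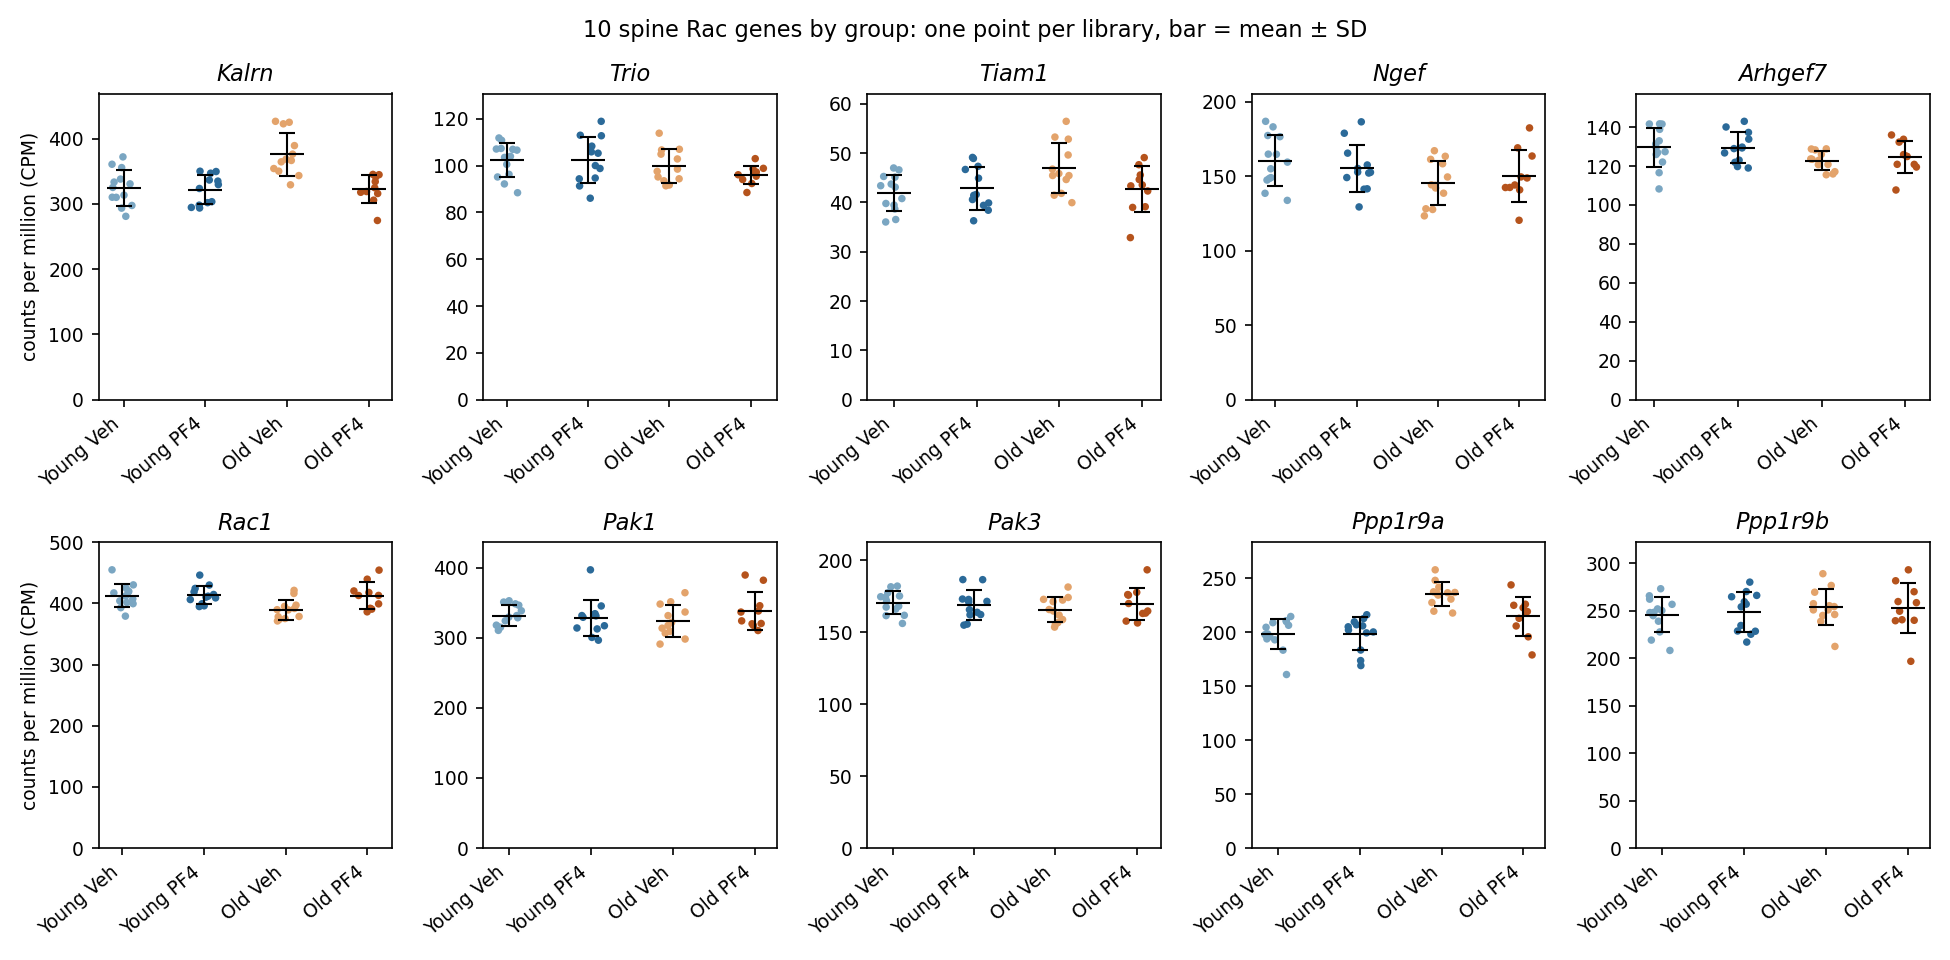
Level of each of the 10 genes in counts per 1000000 (CPM, linear axis from 0) in each library, by group, with the group mean and SD as a bar. All 12 Old Veh points of Ppp1r9a sit above the Young Veh points, whereas 9 of the 10 Kalrn points of Old PF4 (274.6 to 345.3 CPM) lie in the range of the young groups and 1 lies below it.

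Among the other exchange factors the age differences were small and did not pass the test. Trio, the kalirin paralogue that also acts on Rac1, had medians of 104 CPM in Young Veh, 102.7 in Young PF4, 98.07 in Old Veh and 96.34 in Old PF4, and a log2 fold change with age of -0.06 (SE 0.03, adjusted p = 0.254). The ages overlapped, although 18 of 22 old libraries lay below the young median. Tiam1, a Rac exchange factor coupled to NMDA receptors, had medians of 43.12, 41.53, 45.68 and 43.47 CPM in the same order of groups and a log2 fold change of 0.09 (SE 0.04, adjusted p = 0.265). Ngef, or ephexin, which links ephrin receptors to small GTPases, had medians of 159.4, 152.6, 144 and 146.4 CPM and a log2 fold change of -0.09 (SE 0.04, adjusted p = 0.213). Arhgef7, or beta-Pix, which brings Pak kinases to Rac1, had medians of 129.5, 129.1, 123.2 and 125 CPM and 19 of 22 old libraries below the young median. Its log2 fold change of -0.07 (SE 0.03, adjusted p = 0.165) passed the threshold with the choroid plexus score as a covariate (-0.11, adjusted p = 0.0141).

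The GTPase, its effectors and spinophilin did not pass the age test either. Rac1 had lowest, median and highest levels of 379.3, 412.1 and 455 CPM in Young Veh, 394.9, 411.1 and 446.4 in Young PF4, 371.4, 389.7 and 421.4 in Old Veh and 386.3, 413.1 and 454.5 in Old PF4, and a log2 fold change of -0.05 (SE 0.02, adjusted p = 0.228). Pak1 (0.00, SE 0.03, adjusted p = 0.983), Pak3 (-0.02, SE 0.03, adjusted p = 0.739) and Ppp1r9b (0.03, SE 0.04, adjusted p = 0.658) had the smallest log2 fold changes of the 10 genes. Their group means ran from 324 to 338.3 CPM for Pak1, from 165.7 to 170.5 CPM for Pak3 and from 245.8 to 253.9 CPM for Ppp1r9b, and all ranges overlapped. Of the 10 genes 6 had an unadjusted p below 0.05, against 19.7% of all genes tested. These were Kalrn and Ppp1r9a, with positive estimates, and Trio, Ngef, Arhgef7 and Rac1, with negative ones. The 95% interval of the age difference ran from -0.06 to 0.06 for Pak1 and from -0.04 to 0.11 for Ppp1r9b.

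The choroid plexus markers had a median log2 fold change of -0.98 with age, with 0 of 10 called, and some of the 10 spine genes moved with the markers between libraries of the same group. With group means removed, Pearson's r with the choroid plexus score over 47 libraries was -0.54 for Arhgef7 (permutation p = 0.00012, adjusted over 10 relations p = 0.0012, Spearman's coefficient = -0.52, permutation p = 0.00034, adjusted p = 0.00305). It was -0.45 for Pak1 (permutation p = 0.00166, adjusted p = 0.0083, Spearman = -0.48, permutation p = 0.00061, adjusted p = 0.00305) and -0.38 for Kalrn (permutation p = 0.00885, adjusted p = 0.0221, Spearman = -0.38, permutation p = 0.00872, adjusted p = 0.0174). Without the 2 libraries farthest from the median score, r was -0.55 for Arhgef7, -0.38 for Pak1 and -0.32 for Kalrn. Pak3 had r = -0.40 (permutation p = 0.0062, adjusted p = 0.0207, Spearman = -0.38, permutation p = 0.00868, adjusted p = 0.0174) and Ppp1r9b r = -0.34 (permutation p = 0.0189, adjusted p = 0.0378, Spearman = -0.39, permutation p = 0.0067, adjusted p = 0.0174), and without the 2 farthest libraries r was -0.36 and -0.33. These 5 of the 10 genes passed an adjusted p of 0.05, and Trio, Tiam1, Ngef and Rac1 did not, with r from -0.24 to -0.05 and adjusted p of 0.168 or more. For Ppp1r9a r was -0.10 (permutation p = 0.494, adjusted p = 0.617, Spearman = -0.17, permutation p = 0.265, adjusted p = 0.331). These relations were looked for after the data had been seen.

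Transcript length also moved with the age differences over all genes. Of the 401 genes tested whose longest transcript has at least 10000 bases, 20.2% were called higher with age and 0.499% lower, with a median log2 fold change of 0.06. Kalrn (10438 bases) and Trio (11495 bases) both belong to this class. The length index of a library, the mean log2 CPM of long genes (at least 4038 bases) minus that of short genes (at most 2394 bases), each gene centred first, differed between ages by 0.01 (permutation p = 0.663). With it as a covariate the age log2 fold change was 0.11 for Kalrn (adjusted p = 0.0213) and 0.18 for Ppp1r9a (adjusted p = 4.68e-06). The long genes of the index had a median age log2 fold change of 0.006, against 0.06 at 10000 bases or more. The index therefore cannot show whether the Kalrn difference is separate from that of its length class. Across libraries with group means removed, Kalrn had r = 0.25 with the index (permutation p = 0.0901, adjusted over 10 relations p = 0.15, Spearman = 0.11, permutation p = 0.471, adjusted p = 0.523), and -0.03 without the 2 libraries farthest from the median. The corresponding r of Ppp1r9a was 0.57 (permutation p = 0.00013, adjusted p = 0.00065, Spearman = 0.34, permutation p = 0.0209, adjusted p = 0.0697), and 0.31 without those 2 libraries. Rac1 had the opposite sign, with r = -0.56 (permutation p = 4e-05, adjusted p = 4e-04, Spearman = -0.38, permutation p = 0.00766, adjusted p = 0.055), and -0.37 without those 2 libraries. Arhgef7 (r = 0.46, permutation p = 0.00152, adjusted p = 0.00507, Spearman = 0.32, permutation p = 0.0297, adjusted p = 0.0742), Tiam1 (r = 0.37, permutation p = 0.0102, adjusted p = 0.0255, Spearman = 0.25, permutation p = 0.0926, adjusted p = 0.185) and Trio (r = 0.35, permutation p = 0.0147, adjusted p = 0.0294, Spearman = 0.37, permutation p = 0.011, adjusted p = 0.055) also passed by r, with 0.27, 0.16 and 0.45 without those 2 libraries. By the Spearman coefficient none of the 10 passed an adjusted p of 0.05. The other 4 genes, Ngef, Pak1, Pak3 and Ppp1r9b, had r from -0.21 to 0.16 and adjusted p of 0.221 or more.

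Within single libraries, the balance of each scaffold and exchange factor pair differed with age while that of the kinases was not shown to. The ratio of 2 genes in the same library needs no scaling between libraries, and these 3 ratios were added after the data had been seen. The log2 ratio of Kalrn to Trio was 1.84 ± 0.142 (SD, n = 22) in old and 1.66 ± 0.123 (n = 25) in young mice, a difference of 0.18 (permutation test, p = 4e-05, adjusted over 6 tests p = 0.00012). It lay above every young library in 7 of 12 Old Veh and in 0 of 10 Old PF4 libraries. The log2 ratio of Ppp1r9a to Ppp1r9b was -0.16 ± 0.133 in old and -0.32 ± 0.097 in young mice, a difference of 0.15 (permutation p = 1e-05, the smallest that the resamples can give, adjusted p = 6e-05). It was above the young median in 12 of 12 Old Veh and 9 of 10 Old PF4 libraries. The log2 ratio of Pak3 to Pak1 differed by -0.02 (permutation p = 0.512, adjusted p = 0.99). With the choroid plexus score as a covariate the first 2 differences were 0.16 (permutation p = 0.00045) and 0.18 (permutation p = 1e-05).

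**Figure D2:**
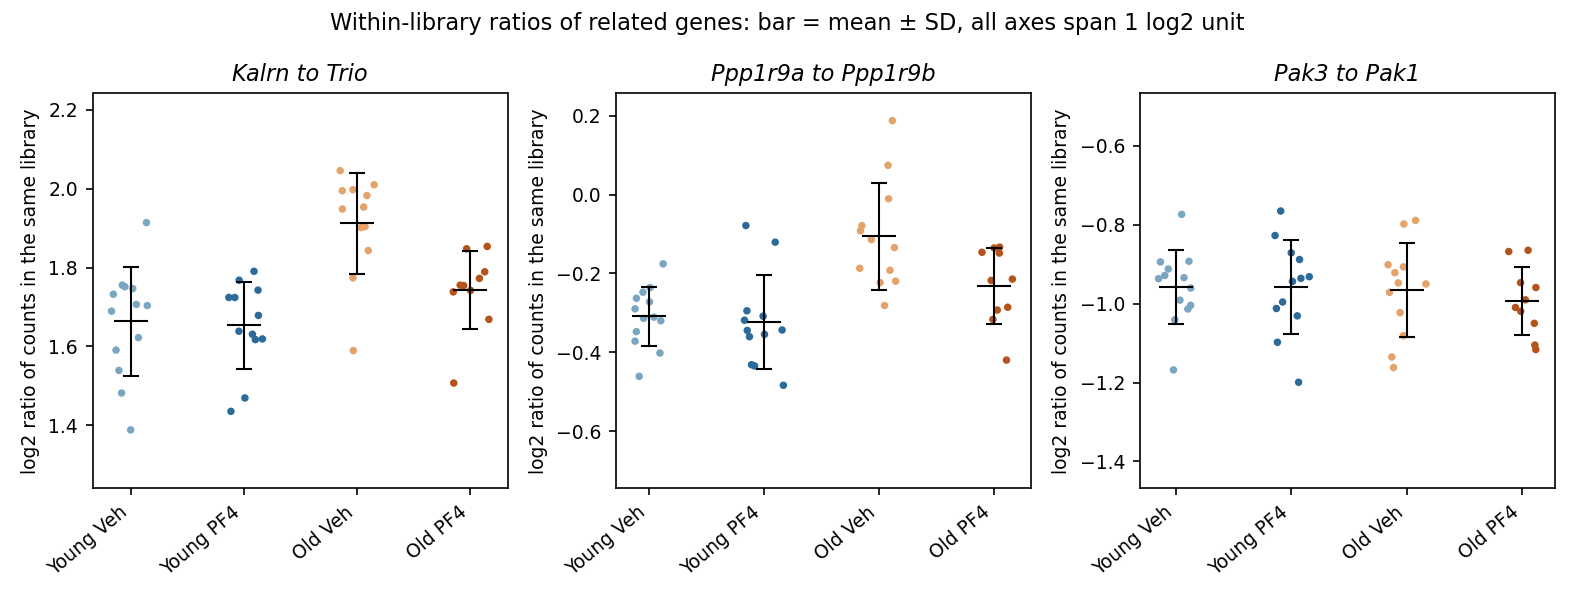
Log2 ratio of the counts of related genes within each library (vertical axis, spanning 1 log2 unit in each panel) by group, with the group mean and SD as a bar. Old Veh means lie above both young means for Kalrn to Trio (1.91 against 1.66 and 1.65) and for Ppp1r9a to Ppp1r9b (-0.11 against -0.31 and -0.32), and the Pak3 to Pak1 means of the 4 groups lie between -0.99 and -0.96.

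In young mice, no difference between PF4 and vehicle was detected in any of the 10 genes. Of the 10 genes 0 were called, against 0% of the 17778 genes tested with edgeR, and 0 of the 10 had an unadjusted p below 0.05, against 1.2% (213 genes) of all. DESeq2 likewise called 0 genes. The log2 fold changes of Young PF4 against Young Veh ran from -0.04 for Ngef to 0.02 for Tiam1, each with an adjusted p of 1. Kalrn had a log2 fold change of -0.01 with a 95% interval from -0.10 to 0.08, and 6 of 12 Young PF4 libraries lay above the Young Veh median. The intervals leave room for changes of several percent in either direction. The ratio of Kalrn to Trio differed by -0.01 between Young PF4 and Young Veh (permutation p = 0.844, adjusted p = 0.99) and that of Ppp1r9a to Ppp1r9b by -0.01 (permutation p = 0.721, adjusted p = 0.99).

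In old mice, the comparison that singled out Kalrn put it 0.22 lower in Old PF4 than in Old Veh on the log2 scale (log2 fold change -0.22, SE 0.05). All 10 Old PF4 libraries lay below the Old Veh median, 6 of 10 lay below every Old Veh library, and 10 of 12 Old Veh libraries lay above every Old PF4 library. In this comparison 6 of all 17778 genes tested (0.0337%) were called, with 1102 (6.2%) at an unadjusted p below 0.05. No call is given for the 10 genes, because the set was chosen by these same Kalrn values. Ppp1r9a (-0.13, SE 0.05) and Tiam1 (-0.13, SE 0.06) had the next largest negative log2 fold changes, with 9 of 10 and 8 of 10 Old PF4 libraries below the Old Veh median. Rac1 (0.08, SE 0.03) had the largest positive one, with 9 of 10 Old PF4 libraries above the Old Veh median and 5 of 12 Old Veh libraries below every Old PF4 library. Trio (-0.05), Ppp1r9b (-0.01), Arhgef7 (0.02), Pak3 (0.04), Ngef (0.05) and Pak1 (0.06) lay between these, and their groups overlapped. Genes with a longest transcript of at least 10000 bases had a median log2 fold change of -0.06 in this comparison, and the mean length index was -0.02 in Old PF4 and 0.03 in Old Veh.

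The values of the age and treatment comparisons stand side by side for Kalrn, Ppp1r9a, Tiam1 and Rac1, which had the largest log2 fold changes of Old PF4 against Old Veh in either direction. The first and second comparisons below share the Old Veh libraries, the second and the last share the Old PF4 libraries, and none of these values carries a test. Old Veh enters the first and second with opposite signs, so values of opposite sign there are partly built in. In Old Veh against Young Veh 492 genes (2.77%) were called over the whole table. Kalrn had log2 fold changes of 0.21 (SE 0.05) in Old Veh against Young Veh, -0.22 (SE 0.05) in Old PF4 against Old Veh and 0.00 (SE 0.05) in Old PF4 against Young PF4. Ppp1r9a had 0.24 (SE 0.04), -0.13 (SE 0.05) and 0.11 (SE 0.05) in the same order, and Tiam1 had 0.16 (SE 0.06), -0.13 (SE 0.06) and 0.00 (SE 0.06). Rac1 went the other way, with -0.08 (SE 0.03), 0.08 (SE 0.03) and -0.003 (SE 0.03). The Kalrn levels of Old PF4 mice (322.4 ± 21.5 CPM, SD, n = 10) can be set beside those of Young PF4 (322.1 ± 22.4, n = 12), Young Veh (324.9 ± 27.4, n = 13) and Old Veh (376.6 ± 33.1, n = 12), and 7 of the 13 Young Veh libraries lay below every Old Veh library while 5 of the 12 Old Veh libraries lay above every Young Veh one. For Ppp1r9a, 6 of 10 Old PF4 libraries lay above every Young PF4 library. The PF4 effect in old minus that in young mice was -0.21 (SE 0.07) for Kalrn as a description, and edgeR and DESeq2 each called 0 of all genes in that contrast (0%), with 707 genes (3.98%) at an unadjusted p below 0.05 in edgeR. Without a count filter edgeR called 1 gene.

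**Figure D3:**
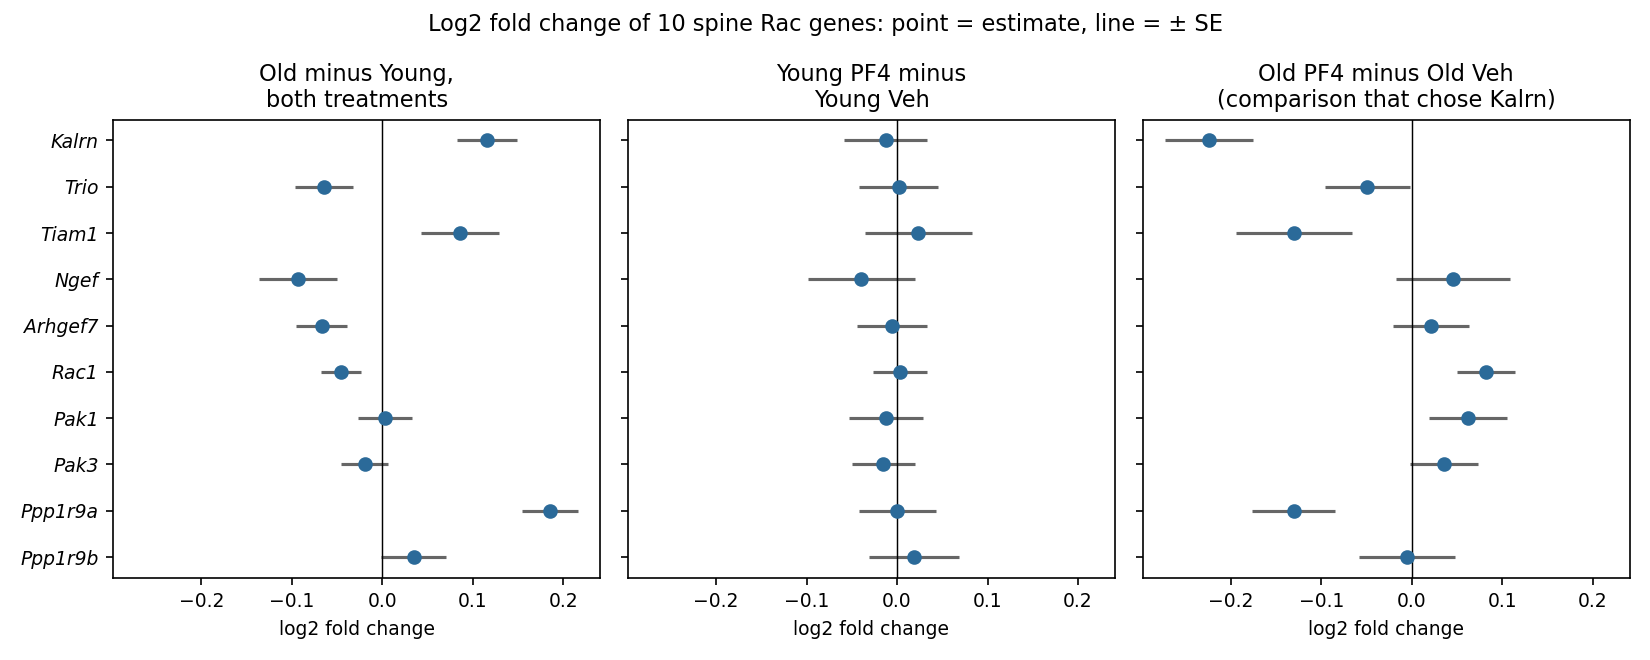
Log2 fold change (horizontal axis) of the 10 genes with age (left), with PF4 in young mice (middle) and with PF4 in old mice (right, a description because this comparison singled out Kalrn), with points as estimates and lines as SE. Kalrn and Ppp1r9a lie at 0.12 and 0.19 with age, all 10 genes lie between -0.04 and 0.02 in young mice, and Kalrn lies at -0.22 in old mice.

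Kalrn varied together with several of the other genes between mice of the same group. With group means removed, its log2 CPM over 47 libraries had a Pearson's r of 0.68 with Ppp1r9b (Spearman = 0.67), 0.65 with Ppp1r9a (Spearman = 0.62) and 0.61 with Tiam1 (Spearman = 0.56), each r with a permutation p of 1e-05, the smallest possible, and an adjusted p of 3e-05 over 9 relations. The adjusted permutation p of Spearman's coefficient was 9e-05 for Ppp1r9a and for Ppp1r9b and 0.00027 for Tiam1. Trio followed with r = 0.41 (permutation p = 0.00427, adjusted p = 0.00769, Spearman = 0.43, adjusted p = 0.00466). Rac1, the target of kalirin, ran the other way, with r = -0.58 (permutation p = 2e-05, adjusted p = 4.5e-05, Spearman = -0.51, adjusted p = 0.000878). Without the 2 libraries farthest from the median of the other gene, r was 0.66 for Ppp1r9b, 0.56 for Ppp1r9a, 0.53 for Tiam1, 0.42 for Trio and -0.47 for Rac1. Arhgef7 (0.24), Ngef (0.03), Pak1 (-0.19) and Pak3 (-0.12) had adjusted p-values of 0.164 or more. Genes measured in the same library share its depth and its cell makeup, whose part in these relations was not tested. With the length index also removed, Kalrn had r = 0.67 with Ppp1r9b, 0.64 with Ppp1r9a, 0.58 with Tiam1, 0.35 with Trio and -0.55 with Rac1, given as a description.

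**Figure D4:**
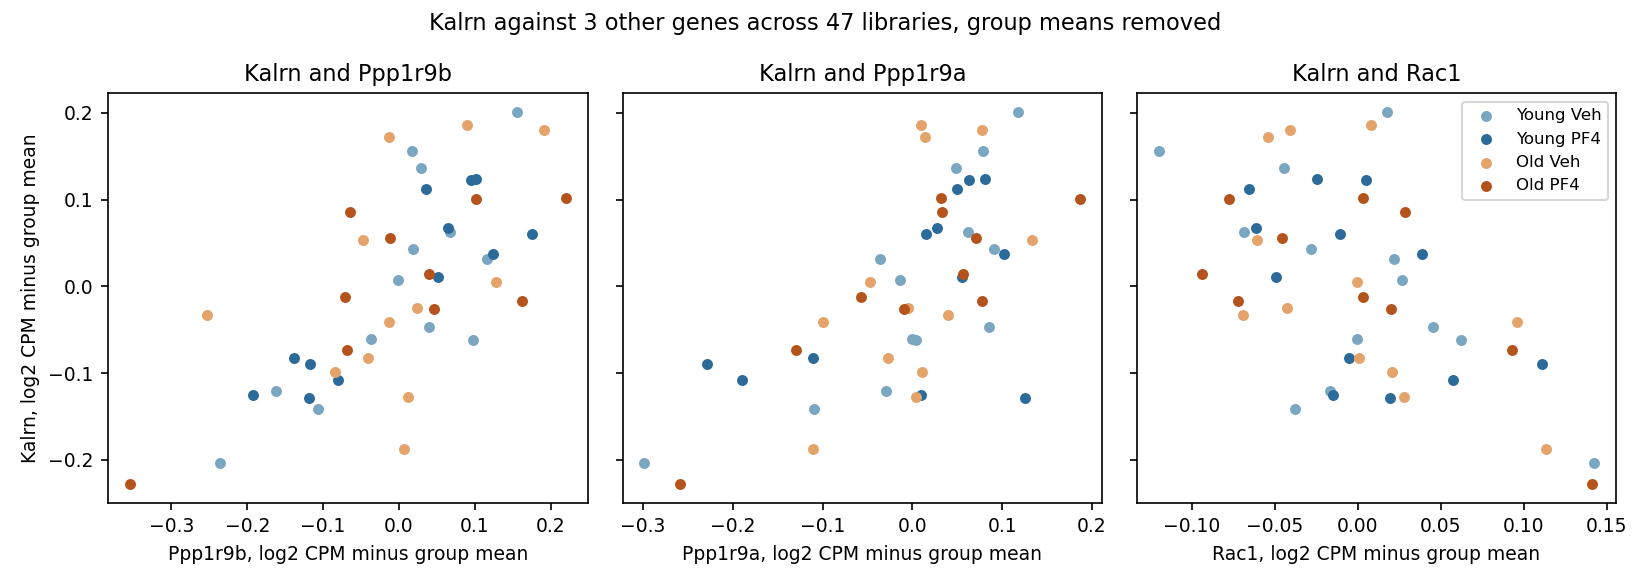
Kalrn (vertical axis) against Ppp1r9b, Ppp1r9a and Rac1 (horizontal axes), all as log2 CPM minus the group mean, with 1 point per library coloured by group (n = 47). Kalrn rose with Ppp1r9b (r = 0.68) and Ppp1r9a (r = 0.65) and fell with Rac1 (r = -0.58).

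Over the 11554 genes with a mean log2 CPM of at least 3, the genes most like Kalrn across libraries, by the same measure, were Auts2 (r = 0.83), Ank2 (r = 0.79), Aak1 (r = 0.79), Scn8a (r = 0.78) and Iqsec2 (r = 0.77). Auts2 encodes a neuronal nuclear and cytoskeletal protein, Ank2 the membrane scaffold ankyrin-B, Aak1 a kinase of clathrin adaptors, Scn8a a voltage-gated sodium channel and Iqsec2 an Arf exchange factor of excitatory synapses. These are descriptions over n = 47 libraries that share depth and cell makeup, and 893 of the genes had r above 0.5, with a median of -0.04 over all. Ppp1r9b ranked 56, Ppp1r9a 95, Tiam1 225, Trio 1634 and Rac1 11238 in this order.

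Other genes of the pathway were read from 6 lists, with the age contrast of both treatments. Among the other exchange factors, Rasgrf1, a calcium-activated exchange factor of neurons, rose by 0.11 (adjusted p = 0.00556), from a median of 790.4 CPM in young to 848.1 CPM in old mice, with 20 of 22 old libraries above the young median. Dock1 (0.15, adjusted p = 0.0192) rose and Arhgef18 (-0.17, adjusted p = 0.0245) fell, and the median log2 fold change of the list was 0.02. Against 3.59% of all genes called higher and 1.56% called lower, of 20 GTPase-activating proteins tested 3 rose, Arhgap21 (0.19, adjusted p = 8.56e-05), Arhgap5 (0.14, adjusted p = 0.00533) and Arhgap15 (0.20, adjusted p = 0.0297), and 0 fell, with a median of 0.01. Arhgap21 had a median of 127.4 CPM in young and 143.3 CPM in old mice, with 21 of 22 old libraries above the young median.

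The branches below Rac1 held no gene past the test. Of 16 small GTPases related to Rac1, 16 genes of the Pak, Lim kinase and cofilin branch and 23 of the Wave and Arp2/3 branch, 0 were called in either direction, with median log2 fold changes of -0.02, -0.02 and 0.03. Their genes of smallest p were Rhog (0.17, adjusted p = 0.114), the cofilin phosphatase gene Ssh3 (-0.15, adjusted p = 0.0656) and Wasl (0.08, adjusted p = 0.112), and 2 of 16, 4 of 16 and 6 of 23 genes had an unadjusted p below 0.05. Over all genes tested 5.15% were called and 19.7% had an unadjusted p below 0.05. Of 21 kalirin and spinophilin partners, 2 rose and 0 fell, against 3.59% and 1.56% of all genes, with a median of 0.02. They were the neuregulin receptor gene Erbb4 (0.20, adjusted p = 0.0195, medians 37.72 CPM in young and 42.77 CPM in old) and the NMDA receptor subunit gene Grin2b (0.16, adjusted p = 0.0329, medians 366.2 CPM and 404.1 CPM). In Young PF4 against Young Veh 0 genes of these 6 lists were called and 0 had an unadjusted p below 0.05, against 0% and 1.2% of all genes tested. The genes of smallest p there were Farp1 (0.11), Racgap1 (-0.20), Rhoj (-0.16), Ssh1 (-0.10), Wasf2 (0.11) and Dlg4 (0.10), each with an adjusted p of 1.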

How the data were processed

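Hippocampal RNA of 47 mice was sequenced, and the values the authors deposited are whole-number read counts, 1 per gene and library, with no scaling. The submitters' processing notes name Trim Galore 0.3.7, STAR 2.5.3a, DESeq2 and build GRCm38. The counting tool and its treatment of overlapping genes are not given in the sources used here. The libraries carry no strand, so reads of overlapping genes on opposite strands cannot be told apart.

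Groups came from the sample titles. Unscaled counts entered the edgeR quasi-likelihood fit (edgeR 4.0.16, R 4.3.3), with the 4 groups in a single fit, with TMM normalization and the filterByExpr filter, which 17778 of 35486 genes passed. The study's methods name DESeq2, which was run as an alternative (version 1.42.0) in place of the main test. CPM values are counts per 1000000 of the TMM-scaled library, and log2 CPM used a prior count of 2. Ratios added 1 count. SE is that of the log2 fold change, from the F statistic. Permutation tests were two-sided with 100000 resamples. Lengths came from an annotation of GRCm38 (17666 genes tested, 99.4%). Steps were tested on simulated data.

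The genes and lists were chosen with earlier results of these data known. All 10 genes are named. Of each pathway list, up to 3 genes of smallest adjusted p in each direction are named, or the gene of smallest p where none passed, and the 5 genes most like Kalrn. Some genes that meet this rule are not reported here. The alternatives were DESeq2's test and size factors, no count filter, the compared groups alone, a replicate block, covariates (length index, choroid plexus score), leaving out 8 libraries under 5000000 counts, and each library in turn. The joint covariates, the within-library ratios and the relations with the choroid plexus score were added after the data had been seen. Mice are separate animals, so p-values measure the spread between mice. The library numbers in the labels run by group, first Old Veh, then Old PF4, then the young libraries of both treatments. What these numbers record is not given. Age, and PF4 in old mice, cannot be told apart from that order.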

Additional observations from a re-analysis of the deposited data

How the results depend on the processing

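The age rise of Ppp1r9a stayed called under each alternative run (0.16 to 0.19, adjusted p up to 0.0072) and in 47 of 47 fits that left out a library (0.17 to 0.20). That of Kalrn was lost with the choroid plexus score (0.078, adjusted p = 0.223), with this score and the length index (0.072, adjusted p = 0.18) and without the libraries under 5000000 counts (0.087, adjusted p = 0.255), and ran from 0.10 to 0.132 with 1 library left out. The genes called with age numbered 916, but 1441 with the length index and 405 without the shallow libraries, where 1 of the 10 genes was called, and 1 or 2 were called with 1 library left out. Age estimates of Pak1 (-0.038 and -0.035) and Ppp1r9b (-0.004 and -0.007) turned negative with the choroid plexus score alone and with both covariates, and that of Pak1 ran from -0.009 to 0.018 with 1 library left out. Arhgef7 was then called (-0.111 and -0.117). Old Veh against Young Veh gave 492 genes, and 855 with the length index, 769 with both covariates and 176 without the shallow libraries. Ppp1r9b there turned to -0.006 with both covariates. The cause of each change was not tested. Fits that left libraries out also held fewer mice.

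In Young PF4 against Young Veh, estimates near 0 changed sign. Ppp1r9a gave -0.001 with DESeq2 and with no filter, -0.012 with the length index and with both covariates, and -0.017 without the shallow libraries. Without those libraries Kalrn gave 0.003, Ngef 0.01 and Pak1 0.001, and Trio gave -0.006 with the length index and -0.005 with both covariates. With 1 library left out the ranges were -0.03 to 0.008 for Kalrn, -0.017 to 0.026 for Trio, -0.028 to 0.008 for Arhgef7, -0.006 to 0.015 for Rac1, -0.039 to 0.005 for Pak1, -0.027 to 0 for Pak3, -0.025 to 0.021 for Ppp1r9a and -0.001 to 0.036 for Ppp1r9b.

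The genes called in Old PF4 against Old Veh numbered 6, with 1102 at an unadjusted p below 0.05. They numbered 19 with DESeq2, 10 with the choroid plexus score, 0 with the 2 groups alone, with the length index, with both covariates and without the shallow libraries, and from 0 (for example without Old Veh library 1) to 20 (without Old Veh library 11) with 1 library left out. The difference of PF4 effects gave 1 gene with no filter and 0 under the other settings run. With 1 library left out, the log2 ratio difference with age was 0.165 to 0.192 for Kalrn to Trio and 0.136 to 0.165 for Ppp1r9a to Ppp1r9b.

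The replicate numbers did not pair the mice: same-numbered mice of different groups had a median correlation of -0.013, and 23 of 66 pairs were above 0.1. A replicate block gave 919 genes with age, with Kalrn at 0.105 (adjusted p = 0.0364), 453 in Old Veh against Young Veh, 10 in Old PF4 against Old Veh, and -0.008 for Ppp1r9a in young mice.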
